A study of Mus musculus with 53 samples.

Results

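The genes described here encode glucose transporters, the enzymes of glycolysis, the enzymes and carriers that handle pyruvate and lactate, and genes known to respond to low oxygen. The list held 34 genes, taken as given. Of these, 31 had an Affymetrix probe set annotated with exactly 1 gene symbol, among 18193 genes so represented, and of several probe sets for 1 gene the one brightest on average was taken. Gpi1, Gapdh and Eno1 had no such probe set and were not analysed here. Pgam2, the muscle phosphoglycerate mutase, had group means between 14.7 and 40.3 signal units and was left out of the tests, which asked for a signal over the median of the array on 2 or more arrays. This left 30 of the genes among the 13807 tested.

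Gene expression was measured on 53 arrays in 15 groups of mouse cells. Wild-type embryonic stem (ES) cells were sampled undifferentiated at day 0 on 7 arrays (line J1 as replicates 1 and 2, CJ7 as 3 and 4, E14tg1 as 5 to 7) and after LIF, the cytokine used to keep them so, had been withdrawn, at day 2 (4 arrays: J1 as replicates 1 and 2, CJ7 as 3 and 4), day 6 (5 arrays: J1 as 1 to 3, CJ7 as 4 and 5) and day 8 (2 arrays of CJ7). ES cells labelled Ezh2-null were sampled at days 0, 2, 6 and 8 (6, 4, 5 and 2 arrays) and ES cells labelled Eed-null at days 0, 2 and 6 (5, 2 and 2 arrays). Ezh2 and Eed are subunits of Polycomb repressive complex 2, which methylates histone H3 and represses developmental genes. The labels name neither line nor allele for the mutants, so wherever mutant and wild-type arrays are compared, genotype and line cannot be told apart. In wild type, E14tg1 was sampled at day 0 only and day 8 was CJ7 alone, so day and line cannot be fully told apart either. The other groups were mesoendodermal cells marked by T-GFP, a reporter of the streak gene T (2 arrays), neuronal progenitors marked by Sox1-GFP (3), neuronal stem cells described as derived from NPc (2), and mouse embryonic fibroblasts, MEF (2). The ES cells came from cultures on feeder cells, which were depleted by leaving the cells to sit in plates. Arrays within a group carry the label biological replicate, with no word on what was repeated, and p-values measure only the spread between these samples.

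Glycolysis converts glucose to pyruvate in a chain of steps, of which hexokinase, phosphofructokinase and pyruvate kinase are the least reversible. Pyruvate is either reduced to lactate and exported by monocarboxylate carriers, or enters mitochondria through pyruvate dehydrogenase, which the Pdk kinases switch off. Most steps have several isozymes that are used in different tissues, and under low oxygen the transcription factor Hif1a, otherwise marked for destruction by the Egln prolyl hydroxylases, raises many of these genes together. Pluripotent cells are known for a high glycolytic rate.

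The upstream windows of the 5 genes on which the results below turn most are shown first, because factors of the Hif1a family bind a short core, ACGTG or GCGTG. Pfkp, Bnip3 and Slc16a3 were among the genes called after LIF withdrawal, and Egln3, Aldoc, Bnip3 and Slc16a3 differed most among the wild-type day 0 arrays. Each window holds the 250 bases before an annotated start (RefSeq, GRCm38.p6), printed 5′ to 3′ on the gene's strand, with matches of the core on either strand in capitals. The windows of Slc16a3 and Pfkp lie within the annotated spans of these genes (chr11:120948484-120959000 and chr13:6579874-6649060), whose 5′ ends are further upstream. The coordinates are chr7:138909507-138909756, minus strand, for Bnip3, chr13:6648772-6649021, minus strand, for Pfkp, chr11:120948817-120949066, plus strand, for Slc16a3, chr12:54203875-54204124, minus strand, for Egln3 and chr11:78322823-78323072, plus strand, for Aldoc, the more upstream of its annotated starts.
Bnip3: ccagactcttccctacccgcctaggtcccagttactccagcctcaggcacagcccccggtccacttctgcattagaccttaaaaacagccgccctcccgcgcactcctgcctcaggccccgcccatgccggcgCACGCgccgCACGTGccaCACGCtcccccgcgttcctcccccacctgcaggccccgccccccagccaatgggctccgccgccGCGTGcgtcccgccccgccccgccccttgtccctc
Pfkp: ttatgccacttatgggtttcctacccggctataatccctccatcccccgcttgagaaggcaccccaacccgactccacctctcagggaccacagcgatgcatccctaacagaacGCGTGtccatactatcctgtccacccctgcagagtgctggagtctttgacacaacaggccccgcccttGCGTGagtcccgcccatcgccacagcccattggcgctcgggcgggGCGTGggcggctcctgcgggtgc
Slc16a3: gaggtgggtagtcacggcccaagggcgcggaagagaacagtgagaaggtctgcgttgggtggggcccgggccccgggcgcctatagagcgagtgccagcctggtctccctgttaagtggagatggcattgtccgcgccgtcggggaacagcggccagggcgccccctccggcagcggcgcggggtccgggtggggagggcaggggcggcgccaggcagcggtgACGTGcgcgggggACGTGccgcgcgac
Egln3: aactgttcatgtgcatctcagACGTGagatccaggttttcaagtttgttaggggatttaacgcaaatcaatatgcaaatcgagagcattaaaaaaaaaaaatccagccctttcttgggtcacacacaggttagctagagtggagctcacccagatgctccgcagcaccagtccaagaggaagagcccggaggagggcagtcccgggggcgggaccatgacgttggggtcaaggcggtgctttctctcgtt
Aldoc: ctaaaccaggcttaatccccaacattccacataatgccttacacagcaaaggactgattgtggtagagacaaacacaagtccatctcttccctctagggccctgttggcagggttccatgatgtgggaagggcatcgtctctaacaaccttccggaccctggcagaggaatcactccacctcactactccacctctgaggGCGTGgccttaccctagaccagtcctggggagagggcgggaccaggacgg

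The Bnip3 window held 5 matches of either core, Pfkp 3, Slc16a3 2, Egln3 1 and Aldoc 1. In Bnip3 a CACGTG, the palindromic E-box, gives overlapping matches of ACGTG on both strands. Over the whole list, 33 of 42 windows (78.6%) held ACGTG or GCGTG on either strand, against 12679 of 32851 windows of all genes (38.6%). The 42 windows belong to 30 genes, 27 of which had a match in at least 1 window, and the promoter table held no window for Slc2a3. ACGTG alone was in 50% of the listed genes' windows against 16.6% of all, GCGTG in 52.4% against 28.2%, and CACGTG in 14.3% against 6.0%. The listed genes' windows were also richer in G and C, with a median of 61.0% against 52.4% for all windows, and the part of base composition in these shares was not tested. A match is a description of the letters and not a binding site.

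Before the members were compared, the labels were checked. Ezh2 signal was 1185 to 1786 on the wild-type day 0 arrays and 169 to 246 on the Ezh2-null ones. Eed signal was not lower in the cells labelled Eed-null (2819.9 to 3099 against 2172 to 2885 in wild type at day 0), and since the altered part of the gene is not given, it does not check that label. Sox1 gave 746 to 789 in Sox1-GFP cells but 41.5 and 45.5 in neuronal stem cells. Fabp7, a marker of neural stem cells and glia, was high in both, with 3577 to 3723 in the former and 5659 and 5981 in the latter. Mixl1, a streak gene, gave 1409 to 2440 in T-GFP cells, and Col1a1, a fibroblast collagen, 5943 to 7075 in MEF. By a score from 3919 differences between probe sets that share a gene (38.3% of their variance), the arrays of days 2 and 6 fell into a first set and a second set. The second set held 14 arrays: from day 2, replicates 3 and 4 of wild-type and Ezh2-null cells, from day 6, replicates 3 to 5 of the same cells, and every Eed-null array of both days. In wild type at day 2 the first set was thus J1 and the second CJ7. Arrays of day 8 were not assigned to a set, but their scores (-16.5 to -13.8) lay within the range of the first (-19.4 to -7.3). The same score put wild-type day 0 replicates 1 to 3 (-10.3 to -6.9) apart from 4 to 7 (-2.0 to 0.3), and Col1a1 was 3.3 to 9.4 in the former and 122.5 to 236.6 in the latter. What the score stands for was not tested. Markers moved with the sets too: in wild type at day 6, Hbb-bh1, an embryonic globin, was 4662 and 4059 in the first set and 41.3 to 113 in the second, Mixl1 283 and 382 against 1814 to 1914, and Sox2 746 and 761 against 254 to 348. Their part in differences between the sets was not tested. Within the second set, Ezh2-null day 6 replicate 3 stood apart from replicates 4 and 5. Sox2 was 249.3 against 1688.6 and 1524.5, and Pou5f1 481.4 against 2303.4 and 1868.9. What this array's markers contribute to the Ezh2-null day 6 values was not tested. Values within an array set, or with replicates 4 to 7 alone at day 0 (CJ7 as replicate 4 and E14tg1 as the rest), are given below for the results they change most.

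Changes are log2 differences ± SE from a limma fit on log2(signal + 32) over all 53 arrays, with Benjamini-Hochberg adjustment over the 13807 genes of each comparison. A gene was called, and is said to have risen or fallen, at an adjusted p under 0.05 and a change of at least 2-fold. In wild-type cells 4 of the 30 genes (13.3%) were called at day 2 against day 0, 1 higher and 3 lower, where 3.43% of all genes were called (1.48% higher and 1.96% lower). At day 6 again 4 (13.3%) were called, 1 higher and 3 lower, where 10.3% of all genes were called (5.96% higher and 4.38% lower). At day 8 there were 5 (16.7%), 2 higher and 3 lower, where 11.4% of all genes were called (7.71% higher and 3.69% lower). The shares of days 6 and 8 were thus near those of all genes. With arrays centred on their median, or quantile normalised, no member was called higher at day 6, and at day 8 the split became 0 higher and 3 lower (centred) or 1 higher and 2 lower (quantile). With wild-type replicates 4 to 7 alone at day 0, day 2 had 1 higher and 1 lower, and day 6 had 0 higher and 3 lower.

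From day 0 to day 6 there were 9 calls (30%) in Ezh2-null cells, 1 higher and 8 lower, where 16.3% of all genes were called (8.64% higher and 7.64% lower). In the cells labelled Eed-null there were also 9 (30%), 1 higher and 8 lower, where 10.1% of all genes were called (5.55% higher and 4.58% lower). The lower 8 were Pfkp, Bnip3, Pdk1, Slc16a3, Hk2, Pfkl, Aldoc and Egln3 in both. Every Eed-null array of day 6 was in the second array set, so day and array set cannot be told apart in these cells. A block for array set takes the set difference from the other genotypes. With it, Pdk1 (-0.32), Ldhb (0.53) and Egln3 (-0.74) were not called in cells labelled Eed-null. In wild type the genes called lower at day 6 were Pfkp, Bnip3 and Pdk1. Markers of other cells moved over the same days: summed fibroblast markers (10 of 10 measured) were 2517 to 4792 at day 0 and 8563 to 10391 at day 6 in wild type, summed naive ES markers (7 of 7) 15609 to 20206 and 2513 to 3869, and summed blood markers (5 of 5) 279 to 7307 at day 6. Their part in the changes of the listed genes was not tested. Centring the arrays shifted all changes by -0.16 at day 8 in wild type, by -0.15 in neuronal stem cells, by -0.14 for Eed-null against wild type at day 0 and by -0.11 in MEF, and by at most 0.1 in either direction in the other comparisons of groups.

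**Figure D1:**
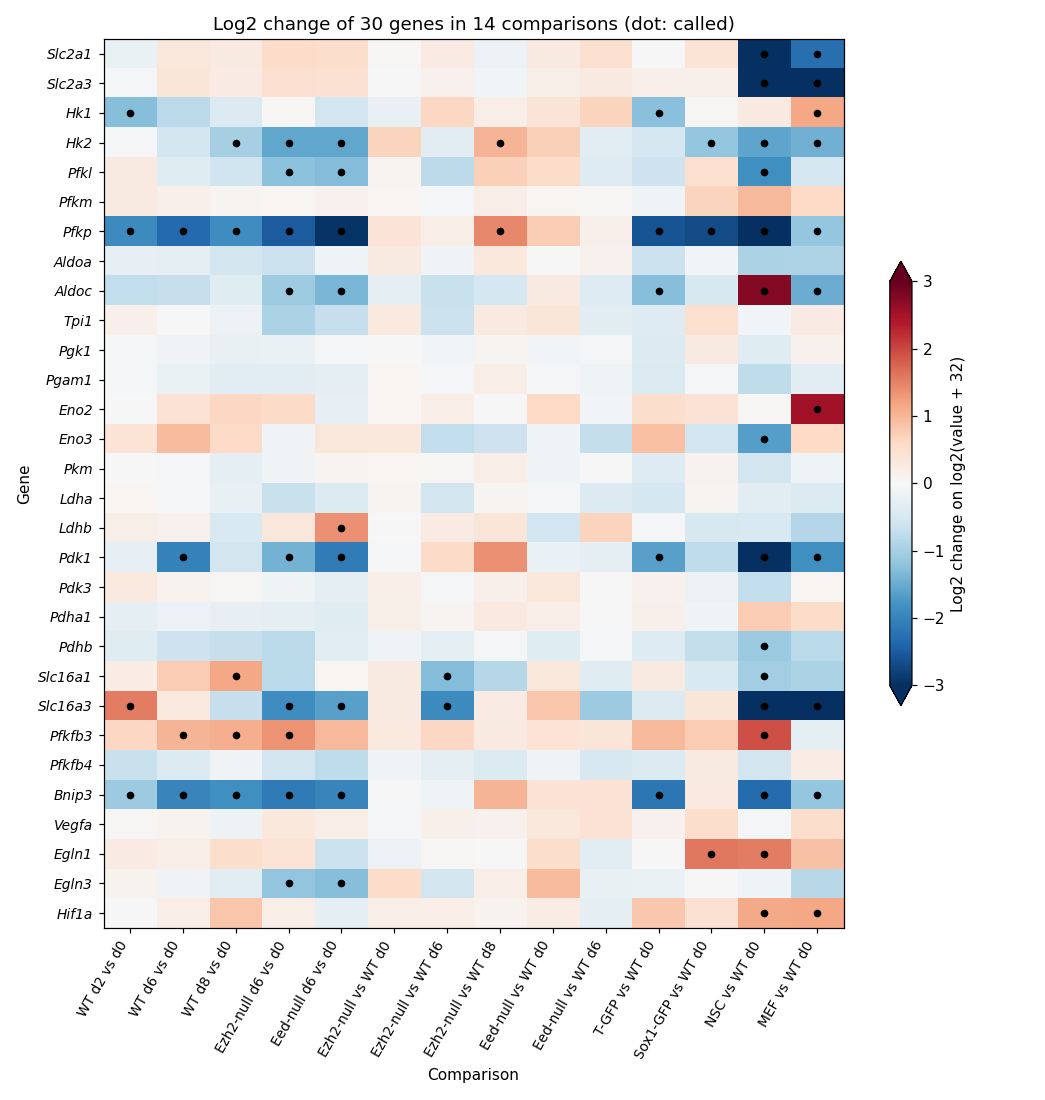
Log2 change of each of the 30 tested genes (rows, in pathway order) in 14 comparisons (columns), from -3 (dark blue) to 3 (dark red), with changes beyond these ends drawn in the end colour; a black dot marks a called change. Pfkp and Bnip3 carry a dot and a blue cell in all 3 wild-type time comparisons, and the columns of neuronal stem cells (15 dots) and MEF (11 dots) hold the most.

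The glucose transporters Slc2a1 (GLUT1) and Slc2a3 (GLUT3), which carry glucose across the plasma membrane, were called in no time course and were low in neuronal stem cells and MEF. Slc2a3 signal was 5786 to 6538 (median 6306) at day 0 in wild type, 5424, 5030.0, 6614 and 6759 at day 2, 7419, 8246, 8332, 7950.4 and 8092 at day 6, and 7208 and 7417 at day 8. It was 6489 and 7316 in T-GFP cells, 6636, 6726 and 7340.3 in Sox1-GFP cells, 211 and 198 in neuronal stem cells and 18 and 23.4 in MEF. Every array of the last 2 groups lay far below every other array of the series, the lowest of which was 5030.0, and the MEF values lay below the array medians (50.5 to 63.0). The log2 change against wild-type day 0 was -4.72 ± 0.09 (adjusted p = 1e-36) in neuronal stem cells and -6.89 ± 0.09 (adjusted p = 1.4e-43) in MEF, the largest changes of any member against day 0. At day 6 Slc2a3 lay above every day 0 array but by less than 2-fold, by 0.37 ± 0.07 (adjusted p = 6.8e-06). Slc2a1 signal was 2440.1 to 4523 (median 2737) at day 0, 2693 and 3780.2 in T-GFP cells, 4222, 4370.3 and 4145 in Sox1-GFP cells, 309.7 and 325 in neuronal stem cells and 563 and 724 in MEF. It fell by 3.21 ± 0.19 on the log2 scale in neuronal stem cells (adjusted p = 6.6e-19) and by 2.27 ± 0.19 in MEF (adjusted p = 4.9e-14), with no overlap. All other probe sets of both genes (2 for Slc2a1 and 3 for Slc2a3) fell at least 2-fold in both cell types. Between Sox1-GFP progenitors and neuronal stem cells, which are both neural, Slc2a3 differed by -4.87 and Slc2a1 by -3.61 (log2). These are bulk samples, in which fewer cells of a type and less RNA per cell cannot be told apart.

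The hexokinases trap glucose by phosphorylating it; Hk1 is the housekeeping form and Hk2 the insulin- and hypoxia-responsive one. Hk1 signal was 268 to 655 (median 339.6) at day 0 and 166, 151, 127 and 159 at day 2, with every day 2 array below every day 0 array. The log2 change was -1.27 ± 0.17 (adjusted p = 1.4e-07), and with wild-type replicates 4 to 7 alone at day 0 it was -0.88, below 2-fold. Hk1 was again higher at day 6 (279, 265, 183, 183 and 192) and day 8 (281 and 303), so that day 2 held the lowest group mean of the series, 150.4. Low day 2 values were also seen in Ezh2-null cells (189, 155, 183 and 176) and in cells labelled Eed-null (190.4 and 179), and T-GFP cells gave 146 and 158, a log2 change of -1.26 ± 0.22 (adjusted p = 9.9e-06), which was -0.86 with replicates 4 to 7 alone. MEF gave the highest Hk1 signal (862 and 1056), a rise of 1.17 ± 0.22 (adjusted p = 1.3e-05).

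Hk2 lay above wild type in both mutants at day 0 and overlapped with it at day 6. Its signal was 1024 to 1615 (median 1346) in wild type, 1922 to 2538 (median 2077) in Ezh2-null cells and 2165, 2297, 2082, 2289.5 and 2096 in cells labelled Eed-null at day 0, and every mutant array lay above every wild-type array. The differences were 0.67 ± 0.14 (adjusted p = 0.0085) and 0.71 ± 0.15 (adjusted p = 0.00017), past the p threshold but below 2-fold. By day 6 the signal was 746, 676, 904, 1051 and 1214 for wild type, 933, 887, 474, 686 and 618 for Ezh2-null cells and 726 and 704 in cells labelled Eed-null, so the groups now overlapped. The change from day 0 was -0.55 ± 0.15 (adjusted p = 0.0018) in wild type, which was not called, -1.56 ± 0.15 (adjusted p = 8.5e-12) in Ezh2-null cells and -1.57 ± 0.21 (adjusted p = 1.5e-07) in cells labelled Eed-null. The difference between these changes was itself called, at -1.01 ± 0.21 (adjusted p = 0.00067) and -1.02 ± 0.26 (adjusted p = 0.0044), both close to the 2-fold limit and below it with wild-type replicates 4 to 7 alone (-0.86 and -0.87). Leaving out wild-type day 0 replicate 1 or 2 or day 6 replicate 4 or 5 also took both below it, and so did Ezh2-null day 0 replicate 3 or day 6 replicate 3 or 5 for the former, which was -0.32 in the first array set alone (adjusted p = 0.31). At day 8 Hk2 was 614 and 682 in wild type, a change at the 2-fold limit of -1.0 ± 0.20 (adjusted p = 8.8e-05), not called without any of day 0 replicates 4 to 7 or day 8 replicate 1, and 1224 and 1464 in Ezh2-null cells, a difference of 1.01 ± 0.25 (adjusted p = 0.016) that was lost when any 1 of the 4 arrays was left out. Sox1-GFP cells (566, 579 and 593), neuronal stem cells (409.8 and 430.0) and MEF (465 and 479) all lay below every day 0 array, with log2 changes of -1.15 ± 0.17 (adjusted p = 4e-07), -1.59 ± 0.20 (adjusted p = 6.5e-09) and -1.43 ± 0.20 (adjusted p = 6.6e-08).

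Phosphofructokinase commits sugar to glycolysis and is made of liver (Pfkl), muscle (Pfkm) and platelet (Pfkp) type subunits. Pfkp fell in all 9 comparisons of a later day or another cell type with day 0. Its signal was 897 to 2512 (median 978) at day 0 in wild type, 516, 282, 232 and 216 at day 2, 306, 239.7, 170.3, 175 and 190.2 at day 6 and 316 and 297 at day 8. No array of days 2 to 8 reached the lowest day 0 array, and day 0 replicate 3 (2512) stood above the other 6 (897 to 1454). The log2 changes were -1.91 ± 0.25 (adjusted p = 1e-07), -2.33 ± 0.24 (adjusted p = 2.9e-11) and -1.86 ± 0.32 (adjusted p = 8.1e-06). In Ezh2-null cells the signal went from 1206 to 1840.0 (median 1724) at day 0 to 866, 325, 275 and 244 at day 2, 386, 314, 116, 282 and 231 at day 6 and 897 and 889 at day 8. The day 8 arrays thus lay well above those of day 6 and above wild type at day 8, by 1.45 ± 0.40 (adjusted p = 0.037), a call lost when any 1 of the 4 arrays was left out (adjusted p 0.17 to 0.26). Naive ES genes (7 markers, summed signal) gave 13171 to 13888 in these Ezh2-null day 8 arrays against 4978 to 5788 in wild type at day 8 and 15609 to 20206 in wild type at day 0; their part in the Pfkp difference was not tested.

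In cells labelled Eed-null Pfkp went from 2186, 2118, 2184, 2207 and 1563 at day 0 to 381 and 379 at day 2 and 261 and 219 at day 6. Only the day 0 arrays were high, and the day 6 change was -2.93 ± 0.34 (adjusted p = 4.1e-09). The cell types were ordered MEF (465 and 559.8), T-GFP (193 and 154), Sox1-GFP (169, 174 and 134) and neuronal stem cells (27.5 and 18.1). T-GFP and Sox1-GFP cells overlapped, and all 4 lay below every wild-type day 0 array. Their log2 changes from it were -1.17 ± 0.32 (adjusted p = 0.0018), -2.58 ± 0.32 (adjusted p = 1.5e-08), -2.69 ± 0.28 (adjusted p = 4.4e-11) and -4.49 ± 0.32 (adjusted p = 5.5e-16); the MEF value was -0.84 with wild-type replicates 4 to 7 alone and -1.0 without replicate 3, not called in either case. Both other Pfkp probe sets had the same sign in all of these comparisons. At day 2 in wild type they gave -0.96 and -0.09, and that change, averaged over the 3 probe sets, was -0.99 and not called.

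Pfkl was not called at day 2, 6 or 8 in wild type (log2 changes of 0.27, -0.36 and -0.59, adjusted p 0.37, 0.14 and 0.099). Its day 0 signal was 1001 to 2804 (median 1278), against 976, 694, 1019, 1622 and 1895 at day 6. It fell from 1226 to 2044 (median 1743) to 1123, 692, 451, 645 and 576 in Ezh2-null cells, a change of -1.23 ± 0.22 (adjusted p = 5.3e-06), and from 2533, 2443, 2592, 2111 and 1575 to 913 and 861 in cells labelled Eed-null, a change of -1.29 ± 0.30 (adjusted p = 0.00073); no arrays overlapped. Neither fall was called with the mean of all Pfkl probe sets (-0.89 and -0.61), nor the former in the first array set alone (-0.84). Neuronal stem cells were lowest (397 and 403), with a change of -1.83 ± 0.29 (adjusted p = 6.3e-07). Pfkm was called nowhere; its group means lay between 208 and 487, highest in neuronal stem cells, where it was 500.3 and 474 against 208 to 266 (median 229) at day 0, which differ by 0.97 ± 0.12 (adjusted p = 1.5e-09). The lowest group means of Pfkp and Pfkl and the highest of Pfkm in the series were thus all those of neuronal stem cells.

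Pfkfb3 and Pfkfb4 set the level of fructose 2,6-bisphosphate, the main activator of phosphofructokinase. Pfkfb3 signal was 73.0 to 119 (median 107) at day 0, 265, 148, 132 and 159.9 at day 2, 194, 279, 279.9, 188 and 238 at day 6 and 239.8 and 248 at day 8, and every later array lay above every day 0 array. The rise was 1.02 ± 0.17 (adjusted p = 3.2e-06) at day 6 and 1.08 ± 0.24 (adjusted p = 0.00026) at day 8. It also rose from 84.7 to 168 (median 144) to 296, 364, 532, 344 and 365 in Ezh2-null cells, by 1.35 ± 0.18 (adjusted p = 1.6e-08), and had its highest group mean in neuronal stem cells (464 and 469.8), by 1.93 ± 0.24 (adjusted p = 2.4e-09). Its other probe set did not follow, with changes of 0.08 at day 6, -0.44 at day 8 and -0.19 in neuronal stem cells, and with the mean of both probe sets none of these 4 calls remained. At day 6 in wild type the rise was also below 2-fold with centred arrays (0.93) and with day 0 replicates 4 to 7 alone (0.96), and so it was without day 0 replicate 2 or 3 or day 6 replicate 2 or 3 (0.96 to 0.99). Pfkfb4 was called nowhere; it was lower than every day 0 array at day 2 (154, 117, 102 and 128.4 against 182 to 251), by -0.67 ± 0.14 (adjusted p = 0.00017).

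**Figure D2:**
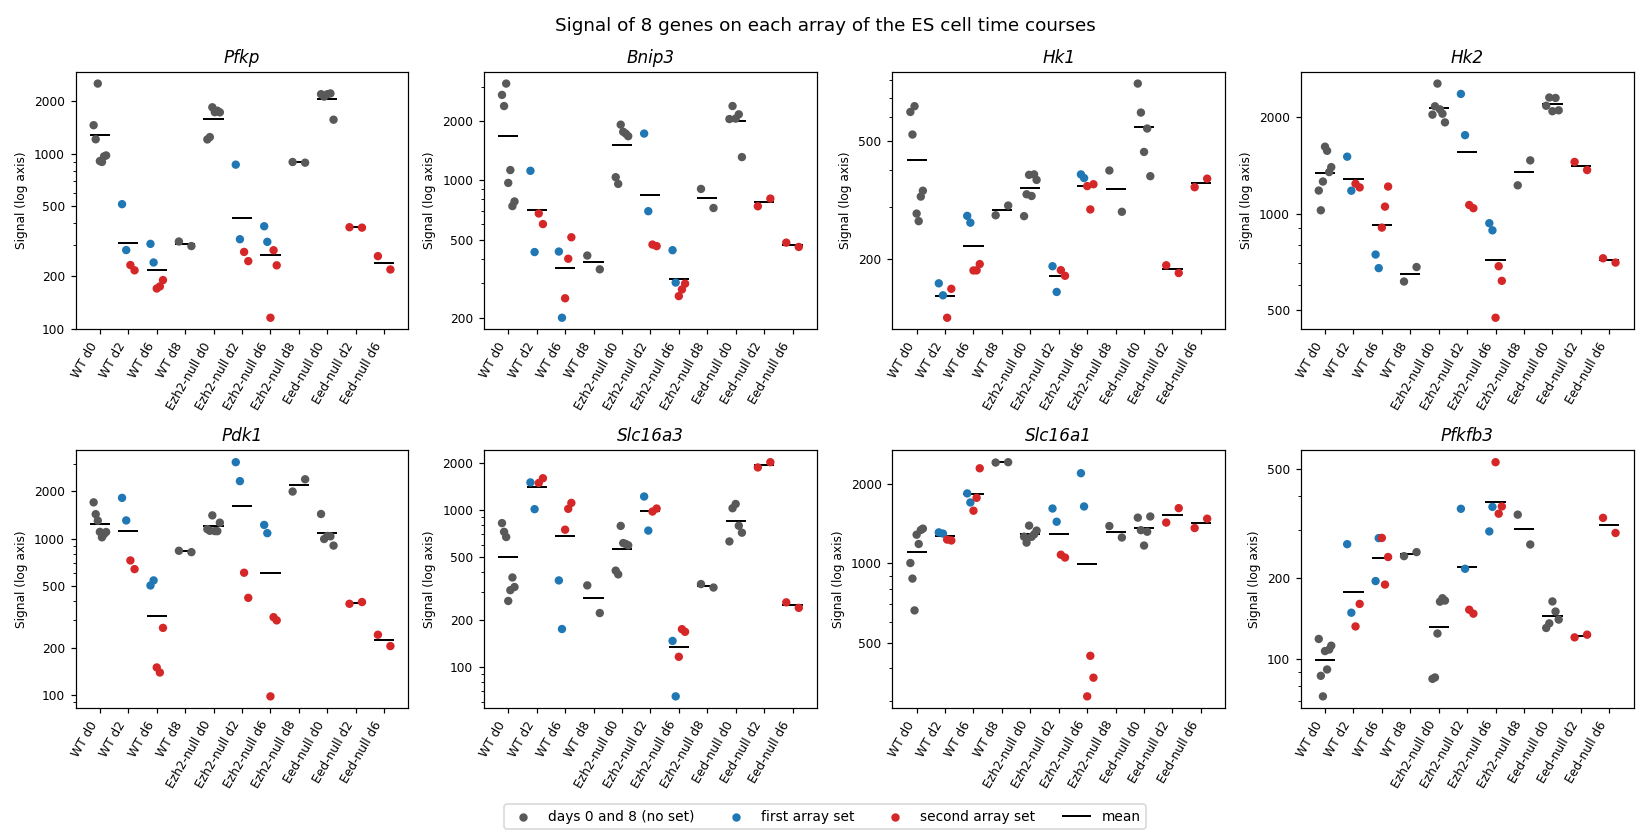
Signal (log axis) of 8 genes on each array of the ES cell time courses, by genotype and day, with a bar at the group mean; blue and red points are the first and second array sets of days 2 and 6, grey points the arrays of days 0 and 8. Pfkp and Bnip3 are low at day 6 in all 3 genotypes, Slc16a3 has its highest mean at day 2, and Pdk1 at days 2 and 6 and, in Ezh2-null cells at day 6, Slc16a1 are lower in the red than in the blue points.

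The enzymes from aldolase to pyruvate kinase varied little, apart from Aldoc and the enolases. Aldoa, Tpi1, Pgk1, Pgam1 and Pkm, which are the main forms of their steps in most cells, were called in no comparison, and their group means spanned 0.64 (Pkm) to 1.22 (Aldoa) on the log2 scale from the lowest to the highest of the 15 groups. Pkm, pyruvate kinase, ranged only from a mean of 4201 in neuronal stem cells to 6542 in Sox1-GFP cells, and Pgk1 from 4652 in T-GFP cells to 7538 in Sox1-GFP cells. Tpi1 was lowest in Ezh2-null cells at day 6, where it was 2626, 1806, 1296, 1591 and 1463 against 2680.2 to 3822 (median 3699) at day 0, lower by a log2 change of -0.96 ± 0.14 (adjusted p = 1.3e-07) with no overlap. Within day 6 the second array set (replicates 3 to 5) was lower than the first. Replicate 3, which also had the lowest Sox2 and Pou5f1 signal of its group, was the lowest.

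Aldoc, the brain form of aldolase, was highest in neuronal stem cells. Its signal was 2509 and 2364 in neuronal stem cells, against 201 to 767 (median 242) at day 0, 213, 250.1 and 229 in Sox1-GFP cells, 136 and 105 in T-GFP cells and 96.2 and 103 in MEF. Both stem cell arrays lay above all others of the series, while Aldoa was lower there (2361 and 2389.9) than on every day 0 array (4349 to 5653). The rise of Aldoc was 2.75 ± 0.34 (adjusted p = 3.1e-09) from wild-type day 0 and 3.23 ± 0.39 (adjusted p = 3.6e-09) from Sox1-GFP progenitors. The other Aldoc probe set gave 0.37 and 0.53, with a mean signal of 11.2, below the array medians (50.5 to 63.0). That probe set could show little change, and it pulls the mean of both probe sets towards no change. In MEF and T-GFP cells Aldoc fell, with changes of -1.48 ± 0.34 (adjusted p = 0.00026) and -1.27 ± 0.34 (adjusted p = 0.0026), and with wild-type replicates 4 to 7 alone neither was called (-0.93 and -0.72), nor was the latter without T-GFP replicate 2 (adjusted p = 0.071). From day 0 to day 6 it went from 145 to 349 (median 340.2) to 114, 108, 87.3, 141 and 109 in Ezh2-null cells, -1.07 ± 0.26 (adjusted p = 0.00041), and from 506, 486, 382, 443 and 282 to 138 and 143 in cells labelled Eed-null, -1.36 ± 0.36 (adjusted p = 0.0022); with both probe sets averaged neither was called, and the former was also not called without day 0 replicate 3 or 5 (-1.0) or with array set as a block (-0.95).

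Of the enolases, Eno3, the muscle form, and Eno2, the neuronal form, could be measured. Eno2 lay below the array medians in wild-type ES cells at day 0 (14.1 to 34.9) and neuronal stem cells (26.9 and 23.3) and was highest in MEF (278 and 295), a rise of 2.52 ± 0.14 (adjusted p = 4.8e-20). Eno3 signal was 133 to 227 (median 202) at day 0 and 326, 351, 420.5, 448 and 473 at day 6, with no overlap and a difference just under 2-fold, 0.95 ± 0.13 (adjusted p = 3.6e-08). In Ezh2-null cells the values were 232 to 279 (median 242) at day 0 and 162, 171, 354, 206 and 297 at day 6, and the difference between the changes of the genotypes was -1.04 ± 0.18 (adjusted p = 7.2e-05). Leaving out wild-type day 0 replicate 3, wild-type day 6 replicate 5 or Ezh2-null day 6 replicate 1 or 2 took it below 2-fold (-0.99 to -0.94). Eno3 was lowest in neuronal stem cells (37.8 and 39.6), -1.66 ± 0.18 (adjusted p = 5.1e-11) from day 0 and -1.10 ± 0.20 (adjusted p = 1.6e-05) from Sox1-GFP cells (104, 136 and 120.4).

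**Figure D3:**
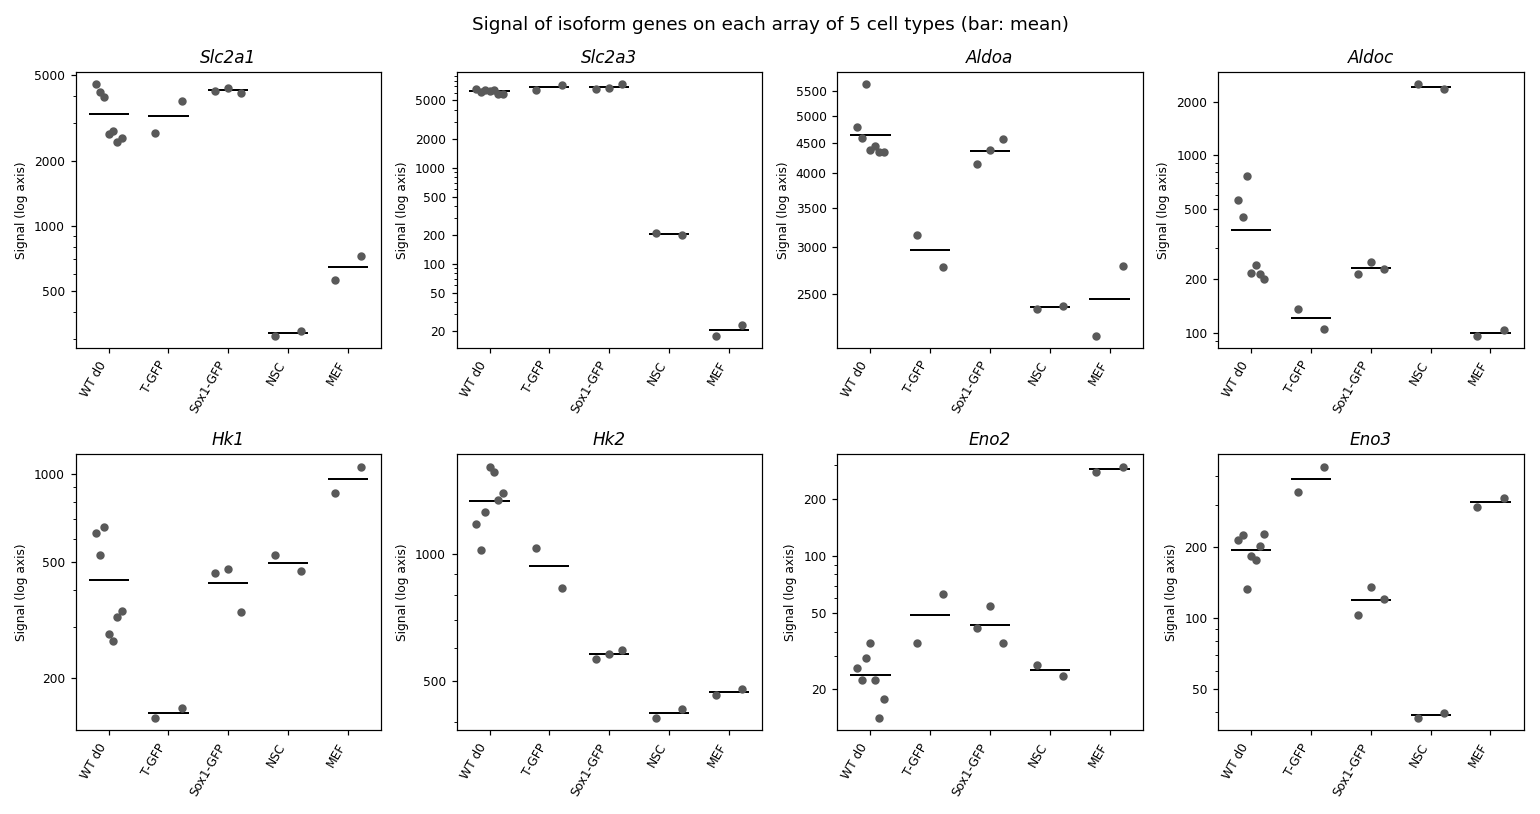
Signal (log axis, each panel with its own range) of 4 pairs of isoform genes on each array of wild-type ES cells at day 0, T-GFP cells, Sox1-GFP cells, neuronal stem cells (NSC) and MEF, with a bar at the group mean. Of the 5 groups, Slc2a1 and Slc2a3 are low in neuronal stem cells and MEF, Aldoc is high in neuronal stem cells, and Hk1 and Eno2 are highest in MEF.

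Lactate dehydrogenase interconverts pyruvate and lactate, with Ldha as the muscle type and Ldhb as the heart type subunit. Ldha was called nowhere and had group means of 4367 to 6858. Its lowest mean was that of Ezh2-null cells at day 6 (5955, 4598, 3159, 4215 and 3906), -0.67 ± 0.11 (adjusted p = 5.3e-07) from day 0. Ldhb rose in cells labelled Eed-null from 640.1, 885, 1169, 611 and 813 at day 0 to 1426 and 1434 at day 2 and 2118 and 2094 at day 6, with no overlap between days 0 and 6, 1.36 ± 0.30 (adjusted p = 0.00034). In wild type the day 6 change was 0.12 ± 0.21 (adjusted p = 0.66), and the difference between the changes was 1.24 ± 0.36 (adjusted p = 0.013). The day 6 arrays split by array set, as the markers given above did: wild-type replicates 1 and 2 gave 916 and 865 and 3 to 5 gave 1777, 1764 and 1552, and Ezh2-null replicates 1 and 2 gave 832 and 994 and 3 to 5 gave 2542, 2109.5 and 2066. With array set as a block the rise of Ldhb in cells labelled Eed-null was 0.53 (adjusted p = 0.06) and the difference from wild type 0.91, and neither was called. Leaving out either Eed-null day 6 array also ended the call of the difference (adjusted p 0.077 and 0.068).

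Pdk1, a kinase that inactivates pyruvate dehydrogenase and a known target of Hif1a, fell at day 6. Wild-type signal was 1018 to 1703 (median 1103) at day 0, 1819, 1305, 724 and 638 at day 2, 501, 539.9, 150.0, 139 and 268 at day 6 and 835 and 818 at day 8. All day 6 and day 8 arrays lay below all day 0 arrays, and day 2 overlapped with them. The day 6 change was -2.02 ± 0.39 (adjusted p = 2.2e-05); it was -0.95 with array set as a block, and replicates 3 to 5, of the second set, were lower than replicates 1 and 2. In Ezh2-null cells the array sets differed more than the days: day 0 gave 1115 to 1406 (median 1134), and day 6 gave 1222 and 1082 in the first set and 98.0, 314 and 299.8 in the second. The change of -1.41 ± 0.40 (adjusted p = 0.0022) was -0.05 in the first set alone (adjusted p = 0.83) and -0.95 without replicate 3. The change in cells labelled Eed-null, -2.10 ± 0.55 (adjusted p = 0.0023), was -0.32 with array set as a block (adjusted p = 0.44). At day 8 Ezh2-null cells gave 1996 and 2392, above every wild-type array of days 0, 6 and 8. The day 8 arrays were assigned to no set, and their array scores lay within the range of the first. Outside the time course Pdk1 was 344 and 401 in T-GFP cells, 303 and 343 in MEF and 108 and 133 in neuronal stem cells, all below every day 0 array, with log2 changes of -1.64 ± 0.53 (adjusted p = 0.012), -1.83 ± 0.53 (adjusted p = 0.003) and -3.05 ± 0.53 (adjusted p = 3.5e-06). The call in T-GFP cells was lost without either of their arrays (adjusted p 0.1 and 0.071).

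Pdk3, a related kinase, was called nowhere and had group means of 261 to 589. The pyruvate dehydrogenase subunits Pdha1 and Pdhb moved apart in neuronal stem cells. Pdhb signal there was 1077 and 1015 against 1970.0 to 2477 (median 2354) at day 0, a change of -1.11 ± 0.11 (adjusted p = 4.4e-12). The other Pdhb probe set, with a mean signal of 56.7, near the array medians, gave 0.10. Pdha1, the other E1 subunit, was 4033 and 4049.9 against 1964 to 2614 (median 2515), a difference below 2-fold of 0.75 ± 0.11 (adjusted p = 5.2e-08). In wild type at day 6 Pdhb lay below every day 0 array (1493, 1558, 1583, 1444 and 1272), by -0.63 ± 0.08 (adjusted p = 4.6e-09), below 2-fold.

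The monocarboxylate carriers Slc16a1 (MCT1) and Slc16a3 (MCT4) move lactate and pyruvate, and Slc16a3 is the form of highly glycolytic cells. Slc16a3 was highest at day 2. Its signal was 263 to 824 (median 371) at day 0, 1497, 1010.5, 1484 and 1591 at day 2, 355, 174, 748, 1016 and 1108 at day 6 and 330.3 and 220.1 at day 8. Every day 2 array lay above every day 0 array, a rise of 1.53 ± 0.31 (adjusted p = 0.00015), which was 2.02 with wild-type replicates 4 to 7 alone. Cells labelled Eed-null were also highest at day 2, with 629.5, 1025, 1091, 792 and 716 at day 0, 1864 and 2014 at day 2 and 258 and 238 at day 6. Ezh2-null cells gave 388 to 790.5 (median 601) at day 0, 1217, 738, 976 and 1020.0 at day 2 and 146, 64.8, 116, 174 and 167 at day 6, the last below every array of day 0.

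The change of Slc16a3 from day 0 to day 6 was called lower in both mutants, at -1.87 ± 0.30 (adjusted p = 7.1e-07) in Ezh2-null cells and -1.63 ± 0.41 (adjusted p = 0.0016) in cells labelled Eed-null, while the wild-type difference of 0.29 ± 0.29 (adjusted p = 0.41) was not called, nor was it with day 0 replicates 4 to 7 alone (0.78, adjusted p = 0.028). The differences between these changes were -2.16 ± 0.41 (adjusted p = 0.00023) and -1.92 ± 0.50 (adjusted p = 0.0058). At day 6 itself Ezh2-null cells differed from wild type by -1.90 ± 0.31 (adjusted p = 8.1e-06) with no overlap. The wild-type values were higher in the second array set. In the first set alone, with 2 arrays a group, the day 6 difference was -1.11 (adjusted p = 0.093) and the difference between the changes -1.37 (adjusted p = 0.085). Slc16a3 lay below the array medians in neuronal stem cells (29.1 and 19.8) and MEF (22.6 and 21.8) and well above them in Sox1-GFP (649, 546 and 599) and T-GFP cells (523 and 212). Its log2 changes from day 0 were -3.11 ± 0.39 (adjusted p = 5.2e-09) and -3.17 ± 0.39 (adjusted p = 3.2e-09) in the former groups.

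Slc16a1 signal in wild type went from 663 to 1356 (median 1186) at day 0 and 1312, 1299, 1232 and 1222 at day 2 to 1845, 1705, 1586, 1775 and 2298 at day 6 and 2417 and 2424 at day 8. All arrays of days 6 and 8 lay above all of day 0. The change was 0.75 ± 0.25 (adjusted p = 0.01) at day 6, below 2-fold, and 1.15 ± 0.35 (adjusted p = 0.0062) at day 8, which was 0.89 with wild-type replicates 4 to 7 alone and 0.85 with both probe sets averaged; leaving out either day 8 array ended the call (adjusted p = 0.061). In Ezh2-null cells at day 6 the first array set gave 2202 and 1646 and the second 313, 446 and 368, on either side of day 0 (1199.8 to 1392). The difference from wild type at day 6 was -1.30 ± 0.27 (adjusted p = 0.00029). It was not seen in the first set alone (0.10, adjusted p = 0.84, 2 arrays a group), so it lay in the second set. A limma fit on only the arrays compared did not call it (-1.3, adjusted p = 0.12). The difference between the changes from day 0 was -1.56 ± 0.36 (adjusted p = 0.002) over all arrays and -0.16 in the first set alone (adjusted p = 0.77). Neuronal stem cells gave 485 and 514, a change of -1.05 ± 0.35 (adjusted p = 0.0084). It was not called without either stem cell array (adjusted p 0.072 and 0.052) or without day 0 replicate 7. The other Slc16a1 probe set gave 0.03, but its mean signal of 17.5 lay below the array medians (50.5 to 63.0). That probe set could hardly show a fall, and it pulls the mean of both probe sets towards no change.

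Bnip3, a mitochondrial protein of mitophagy and a known target of Hif1a, fell over the same days as Pfkp. Its signal was 741 to 3108 (median 1129) at day 0 in wild type, 1119, 432, 679 and 599.9 at day 2, 435, 200.4, 252, 399.9 and 514 at day 6 and 415 and 353 at day 8. All arrays of days 6 and 8 lay below all of day 0, with changes of -1.98 ± 0.29 (adjusted p = 2.3e-07) and -1.83 ± 0.40 (adjusted p = 0.00024). With wild-type replicates 4 to 7 alone at day 0 they were -1.31 and -1.16, still called. The day 2 change, -1.08 ± 0.31 (adjusted p = 0.0068), overlapped with day 0 and was -0.40 with wild-type replicates 4 to 7 alone (adjusted p = 0.3). Leaving out wild-type day 0 replicate 1, 2 or 3 or day 2 replicate 2 also took it below 2-fold. Ezh2-null cells went from 960.3 to 1921 (median 1705) at day 0 to 442, 303, 258, 279 and 299 at day 6, -2.13 ± 0.30 (adjusted p = 7.3e-08), and cells labelled Eed-null from 2052, 2389, 2062, 2168 and 1314 to 483 and 459, -1.99 ± 0.42 (adjusted p = 0.00022). No day 6 array of either reached its day 0 range.

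Bnip3 differed between the reporter lines. Sox1-GFP cells gave 1808, 1784 and 1728, within the day 0 range, whereas T-GFP cells gave 349 and 252 and neuronal stem cells 284 and 252, below it. The changes of T-GFP and neuronal stem cells were -2.17 ± 0.40 (adjusted p = 2.8e-05) and -2.30 ± 0.40 (adjusted p = 3.9e-06) (-1.49 and -1.63 with wild-type replicates 4 to 7 alone), and neuronal stem cells differed from Sox1-GFP cells by -2.59 ± 0.46 (adjusted p = 9.6e-06). MEF gave 639.7 and 620.1, a change of -1.16 ± 0.40 (adjusted p = 0.013) that was -0.48 with wild-type replicates 4 to 7 alone (adjusted p = 0.24), and each of the 2 MEF arrays left out in turn raised its adjusted p above the threshold (0.072 and 0.086), as leaving out day 0 replicate 3 took it below 2-fold (-0.98).

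The oxygen sensors Egln1 and Egln3 are the hydroxylases that act on Hif1a. Egln1 signal was 213 to 443 (median 244) at day 0 and was highest in Sox1-GFP cells (933, 999 and 866) and neuronal stem cells (864 and 932), whose values overlap. The rises were 1.59 ± 0.28 (adjusted p = 7.3e-06) and 1.53 ± 0.33 (adjusted p = 9.1e-05), and the other probe set gave 0.66 and 0.02. At day 2 Egln1 was 692, 380.2, 230.1 and 234 in wild type and 136 and 139.7 in cells labelled Eed-null, a difference of -1.16 ± 0.35 (adjusted p = 0.048). It was -0.64 in the second array set alone (adjusted p = 0.11), to which both Eed-null arrays belong, and leaving out either Eed-null array or wild-type replicate 1 or 2 also ended the call (adjusted p 0.1 to 0.3).

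Over all arrays Egln3 was called only in the day 6 changes of the mutants. Its signal went from 145 to 595 (median 407) to 169, 113, 109, 107 and 133 in Ezh2-null cells, -1.19 ± 0.32 (adjusted p = 0.0015), and from 361, 510.1, 550.5, 544 and 292 to 169.8 and 156 in cells labelled Eed-null, -1.28 ± 0.45 (adjusted p = 0.02). The Ezh2-null days overlapped, and day 0 replicates 1 and 2 (164 and 145) lay far below replicates 3 to 6 (387 to 595). With array set as a block neither was called (-0.86 and -0.74), nor was the second without either of its day 6 arrays (adjusted p 0.095 and 0.13).

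Hif1a transcript, whose protein is regulated mainly after translation, was 938 to 1581 (median 1390.4) at day 0 and had its highest group means in MEF (2583 and 3254) and neuronal stem cells (2828 and 2905), with no overlap with wild-type day 0. The rises were 1.16 ± 0.27 (adjusted p = 0.00025) and 1.14 ± 0.27 (adjusted p = 0.0003), close to 2-fold and below it with wild-type replicates 4 to 7 alone (0.94 and 0.93). Without MEF replicate 2 the MEF value was 1.0, at the limit. In MEF all 3 other probe sets had the same sign, and in neuronal stem cells 1 of 3 did, with 0.29 for the mean of all (adjusted p = 0.12). At day 6 the first array set gave 1745 and 2286 for wild type and 2701 and 2822 for Ezh2-null cells, and the second 1259, 1109.5 and 1282 for the former and 1218, 1186 and 1352 for the latter. In both genotypes every array of the first set thus lay above every array of the second. Vegfa, the angiogenic factor, was called nowhere and had group means of 183 to 313.

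The mutants differed little from wild type on the same day. None of the 30 genes was called by limma in Ezh2-null cells at day 0 (6 at an unadjusted p under 0.05), where 0.0507% of all genes were called (0.0217% higher and 0.029% lower). None was called at day 2 (3 unadjusted), where 0.123% of all genes were called (0.109% higher and 0.0145% lower). In cells labelled Eed-null none was called at day 0 (17 unadjusted), where 2.26% of all genes were called (1.52% higher and 0.739% lower), or at day 6 (9 unadjusted), where 3.1% of all genes were called (1.85% higher and 1.25% lower). Ezh2-null cells had 2 calls (6.67%) at day 6, Slc16a1 and Slc16a3, both lower, where 3.03% of all genes were called (1.89% higher and 1.14% lower). They had 2 (6.67%) at day 8, Hk2 and Pfkp, both higher, where 1.06% of all genes were called (0.782% higher and 0.282% lower). Cells labelled Eed-null had 1 (3.33%) at day 2, Egln1, lower, where 1.04% of all genes were called (0.456% higher and 0.579% lower).

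At day 0 the cells labelled Eed-null had 15 members past the p threshold alone, 13 higher and 2 lower, all below 2-fold; Egln3 (0.95), Slc16a3 (0.83) and Pfkp (0.76) were the largest. That is 50% of the 30 genes, where 41.7% of all 13807 genes tested passed the same threshold. Against wild-type replicates 4 to 7 alone, 4 were called in these cells (13.3%, against 2.3% of all genes in that fit) and 1 in Ezh2-null cells (3.33% against 0.188%), all higher. Summed fibroblast markers gave 1977 to 12751 on the Eed-null day 0 arrays against 2517 to 4792 in wild type, and Col1a1 was 9.0 on Eed-null replicate 5 and 517.9 to 787.6 on the others; their part in these differences was not tested. The change from day 0 to day 6 differed from wild type in 4 genes (13.3%) in Ezh2-null cells, Slc16a3, Slc16a1, Eno3 and Hk2, all lower, where 3.09% of all genes were called (1.85% higher and 1.24% lower). It differed in 3 (10%) in cells labelled Eed-null, Slc16a3 and Hk2 lower and Ldhb higher, where 4.69% of all genes were called (2.27% higher and 2.41% lower); with centred arrays 1 was higher and 1 lower, and with wild-type replicates 4 to 7 alone 1 higher and 4 lower. At day 6 naive ES markers summed to 1706 to 9975 in Ezh2-null and 8116 to 8157 in Eed-null arrays against 2513 to 3869 in wild type, and streak markers (4 of 5 measured) to 198.6 to 282.5 and 189.4 against 1503 to 5485. Their part in the differences of the mutants at day 6 was not tested.

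The differentiated cell types stood further apart. T-GFP cells had 5 calls against wild-type day 0 (16.7%), all lower, where 9.5% of all genes were called (5.56% higher and 3.93% lower); with wild-type replicates 4 to 7 alone there were 3. Sox1-GFP cells had 3 (10%), 1 higher and 2 lower, where 13.4% of all genes were called (9.33% higher and 4.08% lower). Neuronal stem cells had 15 (50%), 4 higher and 11 lower, where 23.2% of all genes were called (12.3% higher and 10.9% lower). MEF had 11 (36.7%), 3 higher and 8 lower, where 24.1% of all genes were called (14.2% higher and 9.82% lower). These comparisons share their control arrays. From Sox1-GFP progenitors to neuronal stem cells 10 members were called (33.3%), 2 higher and 8 lower, where 14.3% of all genes were called (5.53% higher and 8.79% lower). The median change over the 30 genes was -0.58 there, against -0.096 over all genes tested, and -0.54 in neuronal stem cells and -0.37 in MEF against day 0, where all genes had medians of 0.02 and 0.028.

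Isoform switches were tested as changes in the log2 ratio of 2 genes on the same array, because levels of different probe sets are not comparable, and only unequal change can be read. For 9 pairs and 11 comparisons, 99 two-sided exact permutation tests were run and adjusted together, and 3 passed, all for wild type at day 6 (5 arrays against 7, exact p = 0.0013 and adjusted p = 0.042 each). The Pfkl/Pfkp log ratio went from 0.33 ± 0.22 to 2.30 ± 0.78 (SD), the Pdk1/Pdk3 log ratio from 1.38 ± 0.25 to -0.76 ± 0.90, and the Pfkfb3/Pfkfb4 log ratio from -0.92 ± 0.30 to 0.50 ± 0.41. The last uses the brighter Pfkfb3 probe set, and the other Pfkfb3 probe set changed by only 0.08 at day 6. By array set the 3 ratio changes were unequal, at 1.17, -1.23 and 1.17 in the first set and 2.5, -2.74 and 1.59 in the second, with no adjusted p under 0.05 in either. At day 2 the change of Pfkl/Pfkp was 2.18 and of Pfkfb3/Pfkfb4 1.3 (exact p = 0.003, adjusted p = 0.06 each), and of Hk1/Hk2 -1.22 (exact p = 0.015, adjusted p = 0.074). The largest Pfkl/Pfkp change was that of Sox1-GFP cells against day 0, 3.19 (3 arrays against 7, exact p = 0.0083, adjusted p = 0.074). It was 1.96 in T-GFP cells, 1.27 at day 8 in wild type and 0.64 in MEF. With 2 arrays against 7 the smallest exact p is 0.028, which adjusts to 0.074. No pair could therefore pass in T-GFP cells, neuronal stem cells, MEF or wild type at day 8. In neuronal stem cells Aldoa/Aldoc changed by -3.71 and Pfkl/Pfkm by -2.80. Slc2a1/Slc2a3 gave 4.62 in MEF and Pfkl/Pfkp 2.66 in neuronal stem cells, but Slc2a3 in MEF and Pfkp in neuronal stem cells lay below the array medians, so the size of these values depends on the pseudocount. Hk1/Hk2 changed by 1.85 in neuronal stem cells and 2.60 in MEF, and Ldha/Ldhb by 0.11 and 0.47. None of the 3 pairs passed at the same limit when any 1 array was left out (adjusted p 0.06 to 0.071). Each already had the smallest exact p that 5 arrays against 7 allow (0.0013). Fewer arrays, also in each array set alone, raise that smallest p, so these refits cannot show whether a pair would hold. Pairs with Eno1 were not analysed, and Pgam1/Pgam2 was left out because Pgam2 was not tested.

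Wild-type ES cells at day 0 were not uniform in these genes. The 2 subsets compared here were chosen with earlier results of these data known, so the shares describe the split and do not test it. Replicates 1 to 3 all lay above replicates 4 to 7 for 15 of the 30 genes (50%, against 13.6% of all 13807 genes tested), and by at least 2-fold for 4 (13.3% against 0.311%). These 4 were Bnip3, with 2722, 2389 and 3108 against 972, 1129, 741 and 782, Egln3, with 356, 331 and 499 against 124, 124, 137 and 136, Aldoc, with 559, 451 and 767 against 216, 242, 214 and 201, and Slc16a3, with 824, 725 and 672 against 263, 308, 371 and 322. The log2 differences were 1.57, 1.38, 1.29 and 1.15. Hk2, Pdha1, Pdhb, Slc16a1 and Hif1a were lower in replicates 1 to 3 without overlap (5 of 30, 16.7%, against 22.7% of all genes), so Bnip3, a Hif1a target, was higher there and Hif1a transcript itself lower. CJ7 was in both subsets as replicates 3 and 4, whose Bnip3 signals were 3108 and 972, so the split runs through 1 cell line. The subsets also differ in the array score and in Col1a1 as given above, and the part of either in these differences was not tested. On the Ezh2-null day 0 arrays Bnip3 was at 1038 and 960.3 in replicates 1 and 2 and 1679 to 1921 in 3 to 6, and Aldoc at 171 and 145 and 337 to 349. There the array score was 1.0 and 1.5 in replicates 1 and 2 and -2.2 to 0.6 in the others, and Col1a1 was 47.2 and 35.7 in replicates 1 and 2, 23.4 in replicate 3 and 171.5 to 187.1 in 4 to 6.

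**Figure D4:**
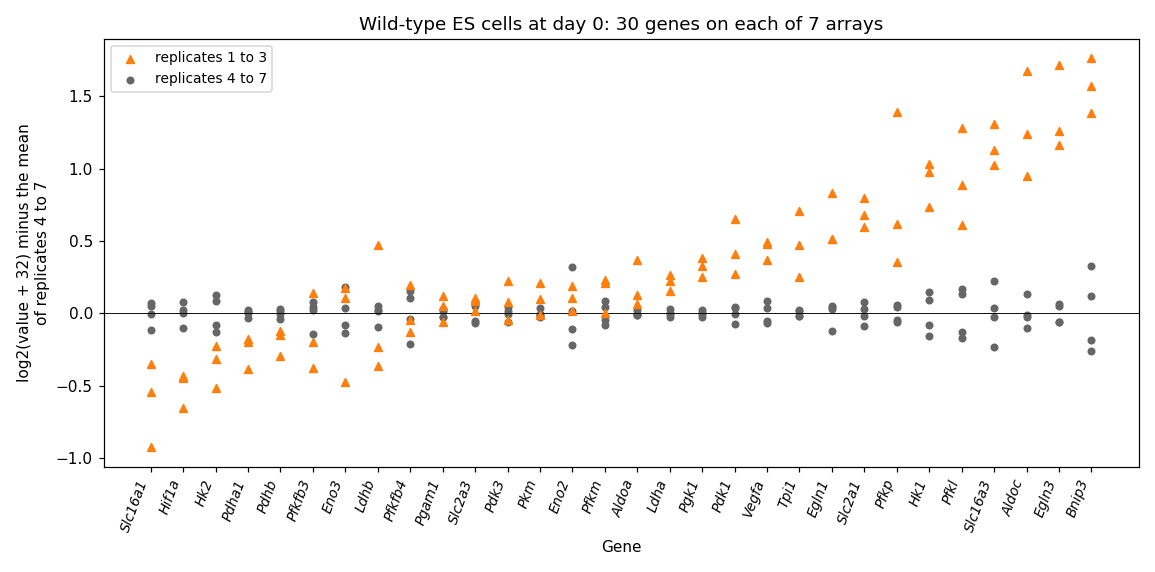
Difference of log2(signal + 32) from the mean of replicates 4 to 7 for each of the 30 genes (columns, in order of the difference) on the 7 wild-type day 0 arrays; orange triangles are replicates 1 to 3, grey points replicates 4 to 7. Bnip3, Egln3, Aldoc and Slc16a3, at the right, have all 3 triangles above every grey point, and Slc16a1, Hif1a and Hk2, at the left, have them below.

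Genes of neighbouring pathways were grouped in lists by their known function. In wild type at day 6 limma called none of 15 tested genes of the tricarboxylic acid cycle (9 at an unadjusted p under 0.05), 18 of the respiratory chain (7 unadjusted), 9 of pyruvate dehydrogenase and mitochondrial pyruvate entry (4), 6 of the pentose phosphate path (4) and 15 other glucose transporters and isozymes (9). Of all genes 10.3% were called in this comparison (5.96% higher and 4.38% lower). Of 17 other hypoxia genes 2 (11.8%, near the share of all genes) fell, Ak4, an adenylate kinase (-2.32), and Kdm3a, a histone demethylase (-1.22), and none rose. Of 9 oxygen sensing regulators Epas1, which encodes Hif2a, fell (-1.18; -1.97 at day 2). Of 5 genes of the serine branch Psph fell (-1.80), and of 11 genes of gluconeogenesis and glycogen Gyg, which primes glycogen, rose (1.67) and Pck2 fell (-1.0).

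In Ezh2-null cells at day 6 against day 0, 4 of the 17 hypoxia genes rose and 3 fell. Of all genes 16.3% were called there (8.64% higher and 7.64% lower). P4ha2, a collagen prolyl hydroxylase (1.60), Ndrg1 (1.45) and Plod2, a collagen lysyl hydroxylase (1.37), were among the hypoxia genes that rose. Ak4 (-2.71) and Kdm3a (-1.38) were among those that fell. In cells labelled Eed-null none rose and 5 fell, led by Ak4 (-2.67) and Kdm3a (-1.43), where 10.1% of all genes were called (5.55% higher and 4.58% lower). At day 0 the cells labelled Eed-null had 4 of the 17 called above wild type, led by Ndrg1 (1.68), P4ha2 (1.19) and Ak4 (1.15). Of all genes 2.26% were called there (1.52% higher and 0.739% lower). In MEF 5 rose and 4 fell, with P4ha2 at 2.43 and Ak4 at -2.93, where 24.1% of all genes were called (14.2% higher and 9.82% lower). In neuronal stem cells 2 rose and 6 fell, where 23.2% of all genes were called (12.3% higher and 10.9% lower). Of the 15 other transporters and isozymes Pfkfb2 (2.04) and Slc2a10 (1.10) rose in MEF and none rose in neuronal stem cells. Mycn, a Myc family factor, fell in neuronal stem cells (-4.58) and MEF (-3.88), and glycogen genes Gyg and Pygb rose in both (Gyg 2.00 and 2.96, Pygb 2.51 and 2.45).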

How the data were processed

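Trizol-extracted total RNA was turned into biotinylated cRNA for Affymetrix arrays, per the labels' protocols. Intensity values, linear and 1 for each probe set on an array, were deposited by the authors; their summarisation is not named in the labels used here. Array medians were 50.5 to 63.0 and differed by 0.2035 on the log2(value + 32) scale, so the deposited intensity was used as it stands. Of 45037 probe sets 34945 had 1 gene symbol, 932 several and 9160 none; only the first were used. Groups came from the sample titles.

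Each of 15 groups was given a mean in limma 3.58.1 (R 4.3.3) on log2(value + 32), with 38 residual and 4.6 prior degrees of freedom. The pseudocount understates changes of dim genes. Values were given in full for members called in a wild-type time comparison or in 2 or more comparisons; of the wider lists at most 3 called genes per direction and comparison were to be named. Alternatives were quantile normalisation, median centring, other pseudocounts, filters, fold limits and probe set rules, array set, replicate number or cell line as blocks, each array set alone, wild-type day 0 replicates 4 to 7 alone, a fit on the arrays compared, and leaving out each array. The fit was tested on simulated data. The members, lists, array sets and day 0 subsets were chosen with earlier results of these data known. Ezh2-null and wild-type replicates of the same number deviated together at day 2 (correlations 0.57 to 0.70) and day 6 (0.38 to 0.72). At day 0 these correlations were -0.02 to 0.29 and at day 8 they were -0.2. No label names pairs and the array sets follow the numbers. The main fit therefore used no pairs, and replicate number as a block was an alternative only.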

Additional observations from a re-analysis of the deposited data

Results flagged for a closer look

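In groups of 4 to 10 arrays, a single array stood apart from the rest (by Dixon's criterion) in 11 of 217 sets of values, or 5.1%; chance flags about 1 in 20 groups. Single high arrays were Slc2a3 on Ezh2-null day 6 replicate 3 (9495.8, the others 8511 to 8689), Pfkl on Ezh2-null day 2 replicate 1 (2310.0 against 1742 to 1771), Aldoa on wild-type day 0 replicate 3 (5653.2 against 4349 to 4796) and Eno3 on Ezh2-null day 0 replicate 1 (279.1 against 232.4 to 248.4). Single low arrays were Pfkm on wild-type day 6 replicate 2 (218.9 against 269.6 to 283.4), Pdha1 on wild-type day 6 replicate 1 (1935.3 against 2111 to 2173) and on Ezh2-null day 0 replicate 3 (2521.7 against 2687 to 2763), and Slc16a3 on wild-type day 2 replicate 2 (1010.5 against 1484 to 1591). Replicate 5 of the cells labelled Eed-null at day 0 was low in 3 genes, Pfkp (1562.9 against 2118 to 2207), Tpi1 (2781.6 against 3587 to 3914) and Bnip3 (1314.3 against 2052 to 2389), and it is also the array with the lowest Col1a1 signal of its group, 9.0.

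The change from day 0 to day 6 differed between genotypes, by the interaction term of the fit, for Slc16a3 (-2.16), Slc16a1 (-1.56), Eno3 (-1.04) and Hk2 (-1.01) in Ezh2-null cells and for Slc16a3 (-1.92), Hk2 (-1.02) and Ldhb (1.24) in cells labelled Eed-null, on the log2 scale. In the first array set alone the Ezh2-null values for Slc16a1 and Hk2 were -0.16 and -0.32, and with array set as a block the value for Ldhb was 0.91.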

How the results depend on the processing

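Over 937 checks of the 87 calls of members under the other settings, 839 kept the call, 97 kept the direction only and 1 changed sign. That was Slc16a1 in Ezh2-null against wild type at day 6, at 0.1 in the first array set alone (limma adjusted p = 0.84), which is no clear difference. Of 841 refits that left out 1 array, 781 kept the call, 60 lost it and 0 reversed it, and 42 of the 87 calls were kept in every setting and refit. Of the members called, the fold limit moved the counts most. It moved the counts of all genes too. For Eed-null against wild type at day 0, 41.7% of all genes were called with no minimum fold and 2.26% at 2-fold. The counts below are of members alone, so they describe the settings and give no comparison of the members with all genes. With no minimum fold there were 12, 17 and 13 at days 2, 6 and 8 in wild type, 22 and 19 at day 6 in Ezh2-null and Eed-null cells, 16 in T-GFP cells, 12 in Sox1-GFP cells, 24 in neuronal stem cells (22 against Sox1-GFP), 22 in MEF, 1 and 9 for Ezh2-null against wild type at days 0 and 6, 15 and 4 for Eed-null at days 0 and 6, and 8 and 6 for the Ezh2-null and Eed-null differences in change. At 1.5-fold these were, in the same order, 7, 9 and 8, then 14 for Ezh2-null cells, 9, 6, 16 against Sox1-GFP, 18, 1 and 7, 5 and 2, and 8 and 5. A pseudocount of 8 gave 1 for Eed-null at day 0, and a larger pseudocount gave 2 at day 2, 3 at day 8, 3 in T-GFP cells, 1 for Ezh2-null at day 8, 0 for Eed-null at day 2 and 2 for the Ezh2-null difference in change. Wild-type replicates 4 to 7 alone gave 2 at day 2, 3 in T-GFP cells, 1 and 4 for Ezh2-null and Eed-null at day 0 and 5 for the Eed-null difference in change. Array set as a block gave 0 and 1 for Eed-null at days 2 and 6 and 1 for its difference in change. The first array set alone gave 1 for Ezh2-null at day 6 and 2 for its difference in change; the second gave 7 for wild type at day 6, 4 for Ezh2-null at day 6 and 0 and 1 for Eed-null at days 2 and 6. Cell line as a random block gave 0 for Eed-null at day 2 and 0 for Ezh2-null at day 8. The mean of all probe sets gave 3 at day 8 in wild type, 1 for Ezh2-null at day 6 and 0 for Eed-null at day 2, where no filter also gave 0. A fit on the arrays compared gave 0 for Eed-null at day 2 and 1 and 4 for Ezh2-null at days 6 and 8. Centring and quantile normalisation each gave 3 at day 8 in wild type, and quantile normalisation 1 for Ezh2-null at day 8 and 2 for its difference in change at day 6. The cause of these moves was not tested.

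With the replicate number as a block (the pairing by number), Ezh2-null cells had 0, 0, 2 and 2 calls at days 0, 2, 6 and 8, as without it; in cells labelled Eed-null, whose numbers do not pair with wild type, there were 0, 2 and 1 at days 0, 2 and 6. Leaving out 1 array gave 3 to 4, 3 to 5 and 3 to 5 calls at days 2, 6 and 8 in wild type, 8 to 11 in Ezh2-null and 8 to 10 in Eed-null cells at day 6, 3 to 6 in T-GFP cells, 0 for Ezh2-null at day 8, 0 to 1 for Eed-null at each of days 0, 2 and 6, and 2 to 6 and 2 to 4 for the differences in change. It gave changes of -2.37 to -1.91 for Pdk1/Pdk3, 1.33 to 1.6 for Pfkfb3/Pfkfb4 and 1.77 to 2.19 for Pfkl/Pfkp at day 6. These 3 ratio changes were -1.23, 1.17 and 1.17 in the first array set, -2.74, 1.59 and 2.5 in the second and -1.98, 1.36 and 2.03 with replicates 4 to 7, with no adjusted p under 0.05, in designs with fewer arrays. Having 2 arrays limits T-GFP cells, neuronal stem cells, MEF, day 8 and the Eed-null time course.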
